A study of Rattus norvegicus with 6 samples.

Results

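A set of 10 genes of bone morphogenetic protein (BMP) signalling was followed in Achilles tendons of newborn rats. They were the ligands Bmp2, Bmp4, Bmp6 and Bmp7, the receptors Bmpr1a and Bmpr2, the secreted antagonist Grem1, and the target genes Id1, Id2 and Id3. The 10 genes were taken by name from the 14217 genes that had at least 1 probe set of their own on the array, and all 10 were measured, by 16 probe sets. Each gene was read from its brightest probe set over the 6 arrays, and the other probe sets of Bmp2, Bmp6, Bmpr2 and Id2 served as a check.

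The tendons were collected from rats on post-natal day 7 and post-natal day 1, with 3 samples of each age on an Affymetrix rat expression array. Every sample pooled tendons of at least 2 animals, and neither a treatment nor a mutation is named for either age. No source used here gives the strain or sex of the rats. The comparison asks how transcript levels differ between tendon 1 week into post-natal growth and newborn tendon. Its p-values rest on the spread from pool to pool.

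BMPs are secreted ligands of the transforming growth factor beta superfamily. They bind pairs of type I and type II receptor kinases, which phosphorylate Smad1, Smad5 and Smad9, and these enter the nucleus with Smad4. The Id genes are among the most direct targets. Their products pair with basic helix-loop-helix transcription factors and keep them from binding DNA. In mouse embryos, Bmp4 made by tendon cells at the attachment to bone takes part in the formation of bone ridges, and BMP activity in tendon is known for driving cartilage and bone formation.

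Tendon markers were high at both ages. Scx, the transcription factor of tendon cells, read 812 ± 20.8 on day 7 and 749 ± 147 on day 1 (SD, n = 3 each), and Tnmd, the tendon membrane protein tenomodulin, read 5562 ± 1091 and 3518 ± 1122 (SD, n = 3 each) at the same ages. Of 13 tendon genes, 2 were higher and 1 lower on day 7 (limma, adjusted p under 0.05), against 1.93% and 3.15% of all genes. At an unadjusted p under 0.05, 7 were higher and 1 lower, against 10.6% and 17.0% of all genes. The tendon sums ran from 62103 to 78286 on day 7 and from 37732 to 59335 on day 1, with no overlap. Markers of other tissues also differed between arrays. Day 1 replicate 1 stood apart, with a summed intensity of 6036 over 10 measured epidermis genes, against 206 to 493 on the day 7 arrays and 193 to 195 on the other day 1 arrays. Of 32 skeletal muscle genes, 7 were lower and 1 higher on day 7 (limma, adjusted p under 0.05), against 3.15% lower and 1.93% higher of all genes, and 24 were lower and 1 higher at an unadjusted p under 0.05, against 17.0% and 10.6% of all genes. Their sums ran from 61039 to 90871 on day 7 and from 93283 to 118882 on day 1. The 22 adipocyte genes had sums from 5229 up to 10326 on day 7, against 3152 to 3631 on day 1. Of these genes, 11 were higher and none lower (limma, adjusted p under 0.05), against 1.93% and 3.15% of all genes. At an unadjusted p under 0.05, 18 were higher and 1 lower, against 10.6% and 17.0% of all genes. Of 27 genes of mitosis, 20 were lower and none higher (limma, adjusted p under 0.05), against 3.15% and 1.93% of all genes. All 27 were lower at an unadjusted p under 0.05, against 17.0% of all genes. The mitosis sums were 2554 to 3077 on day 7 and 4578 to 6456 on day 1. Of 16 cartilage genes, 2 were higher and none lower (limma, adjusted p under 0.05), against 1.93% and 3.15% of all genes. At an unadjusted p under 0.05, 13 were higher and 0 lower, against 10.6% and 17.0% of all genes. The median log2 change of the cartilage genes was 0.80. The cartilage sums were 9051, 6402 and 5468 on day 7, against 3108, 5056 and 2059 on day 1, with no overlap. In each of these lists, 0 genes lay at or below the bacterial control probe sets (at most 4.76) on all 6 arrays. Their part in the results below was not tested. In bulk tendon, fewer cells of a type and less RNA per cell cannot be told apart.

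Bmp4 fell, and it was the only 1 of the 10 genes to pass the test. Its probe set (1387232_at) read 79.0, 95.2 and 72.2 on day 7 (replicates 1, 2 and 3), against 141, 205 and 145 on day 1. All day 7 arrays lay below all day 1 arrays, and the lowest day 1 array stood well clear of the highest day 7 array. The means were 82.2 ± 11.8 on day 7 and 164 ± 35.4 on day 1 (SD, n = 3 each), a 1.97-fold lower level at the later age (log2 change -0.98, 95% interval -1.38 to -0.57, SE 0.17; limma adjusted p = 0.0314). Of all 14217 genes, 5.08% passed this test in either direction, 1.93% higher and 3.15% lower on day 7, so 1 gene in 10 is a share near the background. The change of Bmp4 ranked 271 from the lowest among the 14217 genes.

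The fall of Bmp4 kept its direction in all 15 alternative settings, with log2 changes from -1.09 to -0.80, and it passed in 9 of them. The settings that lost the call included a pseudocount of 16 (-0.86, adjusted p = 0.0556) and 4 of the 6 fits with a single array left out. The arrays left out there were day 7 replicate 1 (adjusted p = 0.127), day 7 replicate 3 (0.0875), day 1 replicate 1 (0.0819) and day 1 replicate 3 (0.0704). Over all genes these fits called 4 higher and 0 lower, 87 and 79, 26 and 37, and 61 and 107, in that order. The fit with all arrays called 274 and 448. The other fits with a single array left out kept the call of Bmp4. They called 200 and 377 (day 7 replicate 2 left out) and 271 and 382 (day 1 replicate 2 left out). The loss of calls was thus not limited to Bmp4. Without day 1 replicate 1, the array with the high epidermis sum, the change of Bmp4 was -1.07. Of the 3 day 1 arrays, replicate 2 had the highest Bmp4 value (205) and the lowest muscle sum (93283), and of the 3 day 7 arrays replicate 2 had the highest Bmp4 value (95.2) and the highest muscle sum (90871).

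**Figure D1:**
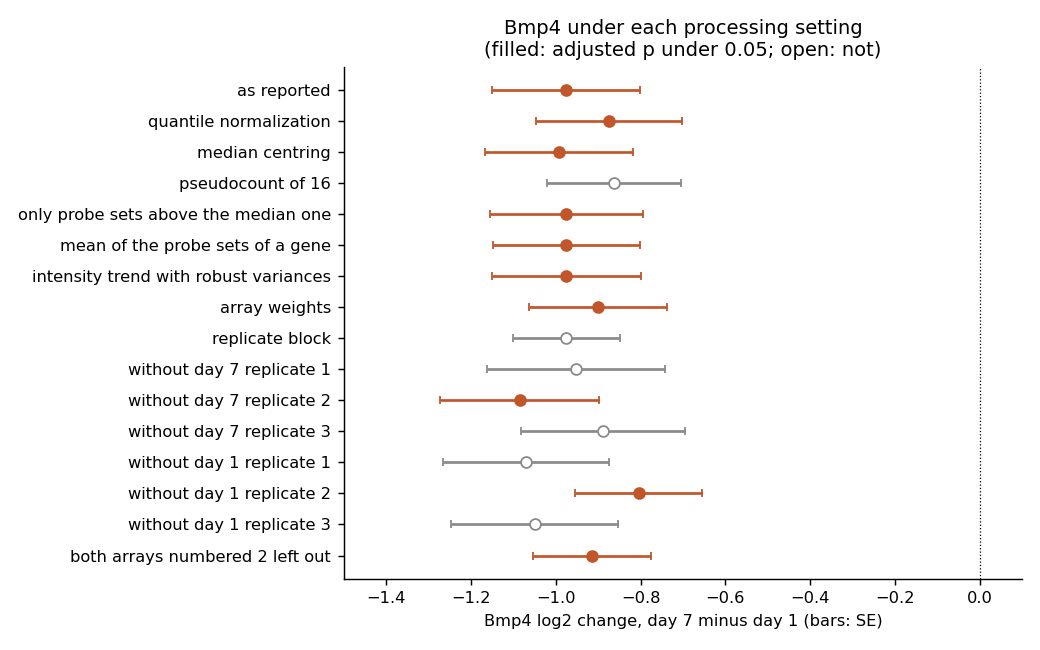
Log2 change of Bmp4 (horizontal axis, day 7 minus day 1, with the standard error as bars) under each processing setting, filled where the limma adjusted p was under 0.05. Every value lay between -1.09 and -0.80, and 6 of the 15 alternatives lost the call.

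The bases before the start of Bmp4 are shown because Bmp4 was the gene that changed. They are RefSeq sequence of the rat build GRCr8, 250 bases upstream of the annotated start, from chr15:22101934-22102183 on the minus strand, with matches to CANNTG in capitals. CANNTG is the E box, a general site of helix-loop-helix factors.
Bmp4: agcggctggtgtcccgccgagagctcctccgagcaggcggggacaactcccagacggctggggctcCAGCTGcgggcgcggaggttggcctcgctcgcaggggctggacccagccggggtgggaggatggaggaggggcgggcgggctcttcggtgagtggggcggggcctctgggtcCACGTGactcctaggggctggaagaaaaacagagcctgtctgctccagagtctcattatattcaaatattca
The window held 2 E boxes and no match to GGCGCC, a GC-rich site that Smad1 and Smad5 bind, or to TATAAA, the TATA box. Searched on both strands over 33469 rat promoter windows of the same length, 65.5% held an E box, 8.69% held GGCGCC and 12.9% held TATAAA. A match is a run of letters and does not show binding.

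The other 3 ligands did not pass. Bmp2, an inducer of bone and cartilage, had a steady level on probe set 1398270_at, with 57.2, 57.0 and 63.3 on day 7 and 49.9, 59.3 and 46.9 on day 1. The groups overlapped through day 1 replicate 2. The log2 change was 0.19 (SE 0.12, 95% interval -0.10 to 0.47; limma adjusted p = 0.415), so that the interval reached from 0.935-fold to 1.39-fold. Its other probe set had a log2 change of 0.14 (limma adjusted p = 0.701).

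Bmp6, a ligand best known for iron sensing in the liver, read 24.7, 30.0 and 25.6 on day 7 on probe set 1388920_at, against 29.8, 26.6 and 19.5 on day 1. The groups overlapped in most of their range. The log2 change was 0.10 (SE 0.17, 95% interval -0.29 to 0.48; limma adjusted p = 0.780), and those of its 3 other probe sets lay at 0.16, 0.04 and 0.18. The sign was not fixed, with -0.07 without day 1 replicate 3.

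Bmp7, a ligand required for kidney and eye development in the mouse, read 21.6, 12.4 and 13.7 on day 7 on probe set 1389403_at, against 30.7, 19.5 and 26.0 on day 1. Day 7 replicate 1 lay above day 1 replicate 2, so the groups overlapped. Its means were 15.9 ± 5.0 on day 7 and 25.4 ± 5.59 on day 1 (SD, n = 3 each). The log2 change of -0.66 (SE 0.23, 95% interval -1.19 to -0.13) had an unadjusted p of 0.0217 and a limma adjusted p of 0.150. The highest of its 6 values was that of the array with the high epidermis sum, and without this array the change was -0.52 (limma adjusted p = 0.365). With a pseudocount of 16 it was -0.38.

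The changes of the ligands were also set against each other within each array, a comparison chosen after the values were seen. The log2 change of Bmp4 minus that of Bmp2 was -1.16, and that of Bmp4 minus that of Bmp6 was -1.07. In both pairs all day 7 arrays lay below all day 1 arrays. A two-sided exact permutation test gave p = 0.10 for each, the smallest that 3 arrays against 3 allow, and adjusted p = 0.225 over the 9 pairs of ligands and of Id genes compared. Bmp4 minus Bmp7 was -0.32, with overlapping arrays (exact permutation p = 0.60).

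**Figure D2:**
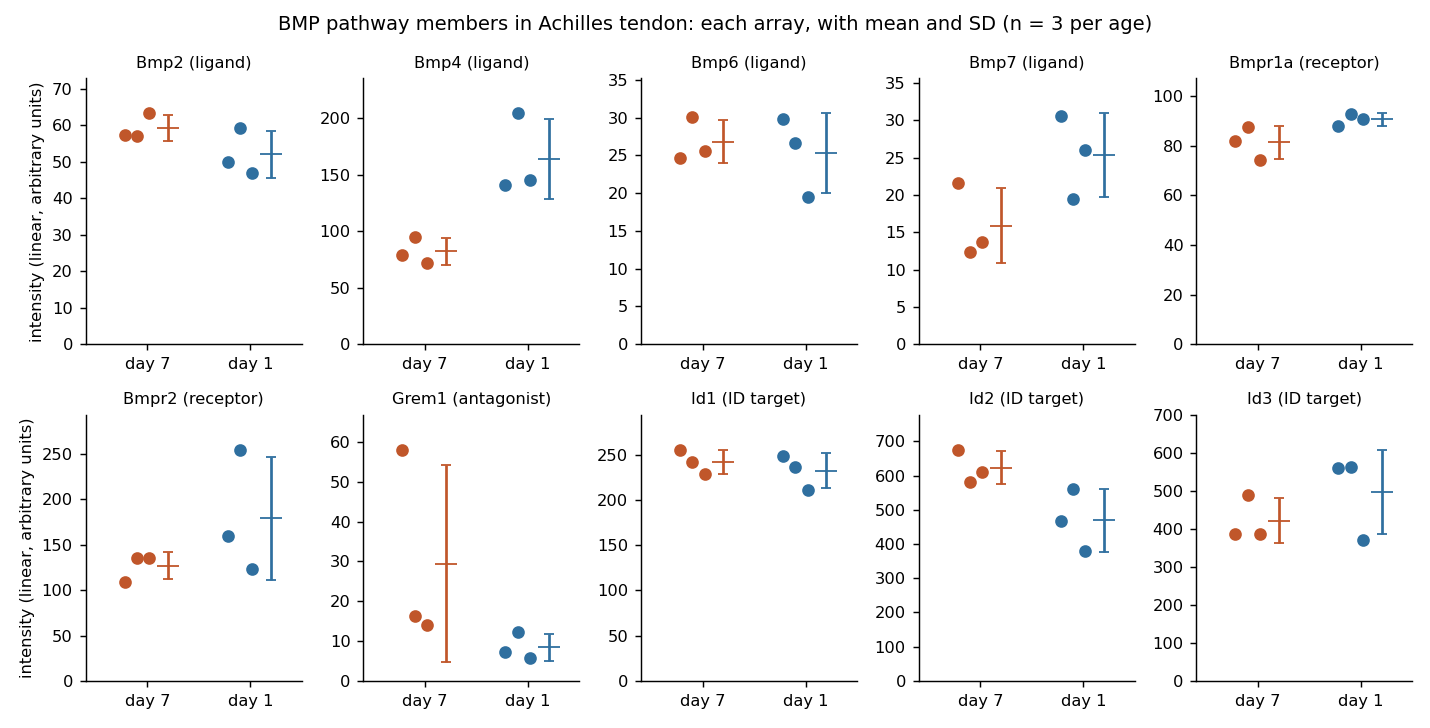
Intensity of the 10 genes on each array (vertical axes, linear, from 0), with day 7 left of day 1 and the mean ± SD of the 3 arrays beside the points. Bmp4 was lower on every day 7 array, Grem1 was spread by 1 high day 7 array, and Id1 stayed between 211 and 255 on all 6 arrays.

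Neither receptor passed. Bmpr1a, a type I receptor kinase, read 81.9, 87.5 and 74.4 on day 7 on probe set 1368899_at, against 87.9, 92.9 and 90.9 on day 1. The day 7 arrays all lay below the day 1 arrays, by a narrow margin between 87.5 and 87.9. The log2 change was -0.16 (SE 0.11, 95% interval -0.41 to 0.09; limma adjusted p = 0.432), and 88.2% of all genes had a larger standard error. It was -0.10 without day 7 replicate 3 and -0.05 after quantile normalization.

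Bmpr2, a type II receptor that phosphorylates the type I partner, read 109, 136 and 136 on day 7 on probe set 1376843_at, against 159, 255 and 124 on day 1. The groups overlapped, and day 1 replicate 2 stood far above the other arrays. The log2 change of -0.44 (SE 0.25, 95% interval -1.01 to 0.13; limma adjusted p = 0.346) was -0.15 without that array. Its second probe set read between 9.22 and 11.3 on all 6 arrays, with a log2 change of 0.10 of opposite sign (limma adjusted p = 0.621). These values lay near the bacterial control probe sets (at most 4.76), where a fold change is not reliable.

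Grem1, which encodes gremlin, a secreted protein that binds BMPs and keeps them from their receptors, had the widest spread of the 10 genes. Probe set 1369113_at read 58.0, 16.3 and 14.1 on day 7, against 7.24, 12.2 and 5.84 on day 1. All day 7 arrays lay above all day 1 arrays, but day 7 replicate 1 stood far above the other day 7 arrays. The means were 29.5 ± 24.7 on day 7 and 8.42 ± 3.32 on day 1 (SD, n = 3 each). The log2 change of 1.46 ranked 62 from the highest among the 14217 genes, with a standard error of 0.50 that 0.661% of genes exceeded, and it did not pass (95% interval 0.31 to 2.61; unadjusted p = 0.0192; limma adjusted p = 0.141). It was 0.83 without day 7 replicate 1 and 0.78 with a pseudocount of 16. The day 1 values lay near the bacterial control probe sets (at most 4.76), where a fold change is not reliable. Within each age, the order of the arrays by Grem1 was that of the cartilage sums given above. It was also that of the sums over 13 tendon genes, which were 78286, 66682 and 62103 on day 7, against 49702, 59335 and 37732 on day 1. The part of these markers in the Grem1 values was not tested.

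The bases before Grem1 are shown because, of the 8 members with a promoter window, Grem1 alone held GGCGCC, in capitals here (GRCr8, chr3:120978320-120978569, minus strand).
Grem1: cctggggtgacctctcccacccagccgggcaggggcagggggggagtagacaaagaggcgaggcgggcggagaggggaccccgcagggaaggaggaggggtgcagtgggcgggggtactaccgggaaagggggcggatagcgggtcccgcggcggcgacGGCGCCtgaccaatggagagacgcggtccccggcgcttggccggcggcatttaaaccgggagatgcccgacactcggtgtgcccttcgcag
The window had no E box and no TATAAA. Over the 33469 rat promoter windows searched, 8.69% held the site in capitals. A match in 1 of 8 windows therefore does not set these members apart. The share of G and C in the Grem1 window was 72%, the highest of the 8, with Bmp4 next at 66.4%.

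None of Id1, Id2 and Id3 passed. Id1 was flat, with 255, 241 and 229 on day 7 on probe set 1387028_a_at and 249, 237 and 211 on day 1. The groups overlapped over nearly their whole range. The log2 change was 0.06 (SE 0.11; limma adjusted p = 0.795), and its 95% interval from -0.20 to 0.32 holds changes from 0.871-fold to 1.25-fold. The sign was not fixed, with -0.0070 without day 1 replicate 3. Id1 is widely used as a readout of BMP signalling.

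Id2, which also restrains differentiation in several lineages, read 675, 581 and 611 on day 7 on probe set 1375532_at, against 466, 561 and 380 on day 1. All day 7 arrays lay above all day 1 arrays, with a narrow margin at the arrays numbered 2. The means were 622 ± 48.1 on day 7 and 469 ± 90.7 on day 1 (SD, n = 3 each). The log2 change of 0.42 (SE 0.16, 95% interval 0.06 to 0.78) had an unadjusted p of 0.0268 and a limma adjusted p of 0.167. It was 0.28 without day 1 replicate 3 and 0.25 with the mean of its probe sets. The second probe set of Id2 read 151, 157 and 107 on day 7, against 130, 132 and 126 on day 1, with a log2 change of 0.07 (limma adjusted p = 0.824), so the probe sets of Id2 differed in the size of the change.

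Id3 read 387, 491 and 388 on day 7 on probe set 1387769_a_at, against 561, 564 and 371 on day 1. Day 1 replicate 3 was the lowest of all 6 arrays, and the other day 1 arrays were the highest. The log2 change was -0.22 (SE 0.19, 95% interval -0.66 to 0.21; limma adjusted p = 0.533), and it was -0.42 without day 1 replicate 3.

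The Id genes were also compared within arrays, again a choice made after the values were seen. The log2 change of Id2 minus that of Id3 was 0.65, and that of Id2 minus that of Id1 was 0.36. Id2 was read here from probe set 1375532_at (0.42), and its second probe set changed by only 0.07. In both pairs the day 7 arrays lay above the day 1 arrays. The two-sided exact permutation p was 0.10 each, the smallest this test allows, and adjusted p = 0.225 over the 9 pairs. Id1 minus Id3 was 0.28, with overlapping arrays (exact permutation p = 0.20).

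The upstream bases of the 3 Id genes are shown side by side because these genes are direct transcriptional targets of the pathway. Capitals mark CANNTG and TATAAA. The windows are GRCr8 chr3:161671314-161671563 (plus strand) for Id1, chr6:47470996-47471245 (minus strand) for Id2 and chr5:153656041-153656290 (plus strand) for Id3.
Id1: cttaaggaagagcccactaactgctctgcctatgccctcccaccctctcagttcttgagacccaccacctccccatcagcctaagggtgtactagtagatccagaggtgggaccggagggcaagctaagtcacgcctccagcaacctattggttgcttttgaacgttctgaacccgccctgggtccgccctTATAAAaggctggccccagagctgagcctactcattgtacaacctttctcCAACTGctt
Id2: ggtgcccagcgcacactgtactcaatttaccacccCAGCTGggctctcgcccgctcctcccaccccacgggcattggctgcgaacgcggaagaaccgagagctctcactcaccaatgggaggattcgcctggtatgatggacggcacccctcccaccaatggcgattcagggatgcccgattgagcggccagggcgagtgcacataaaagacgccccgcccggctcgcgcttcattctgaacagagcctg
Id3: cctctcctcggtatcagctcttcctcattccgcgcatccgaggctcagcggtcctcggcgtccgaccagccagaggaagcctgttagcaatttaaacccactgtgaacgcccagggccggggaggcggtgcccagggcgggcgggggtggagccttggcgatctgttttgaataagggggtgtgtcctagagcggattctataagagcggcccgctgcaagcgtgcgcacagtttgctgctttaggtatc
Id1 had 1 TATAAA and 1 E box, Id2 had 1 E box and no TATAAA, and Id3 had neither. None of the 3 windows held GGCGCC, which says only that these letters are not in the 250 bases shown. The share of G and C was 54.8% for Id1, 62.8% for Id2 and 61.2% for Id3.

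Across the 10 genes, 1 was lower and 0 were higher on day 7 by limma at an adjusted p under 0.05, and 2 were lower and 2 higher at an unadjusted p under 0.05. Of all genes, 27.6% reached an unadjusted p under 0.05. The median log2 change of the 10 genes was -0.05, against -0.01 over all 14217 genes. The arrays of both ages did not overlap for 4 of the 10, with Grem1 and Id2 higher and Bmp4 and Bmpr1a lower on day 7, against 33.1% of all genes (14.0% higher and 19.1% lower). These shares do not set the 10 genes apart from the rest of the array. Without day 1 replicate 1, the array with the high epidermis sum, 0 of the 10 passed limma (1 at an unadjusted p under 0.05). Calls over all genes also fell in that fit, to 26 higher and 37 lower, against 274 and 448 with all arrays. At an unadjusted p under 0.05 they were 1127 and 1857, against 1506 and 2411. The log2 changes without that array were 1.39 for Grem1, 0.43 for Id2, 0.11 for Id1 and -0.13 for Id3.

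The other genes of the pathway were taken from lists by role. Together with the 10 genes the lists held 74 genes, of which 59 were measured. Of the other 49, 0 passed limma at an adjusted p under 0.05, while 6 were higher and 5 lower at an unadjusted p under 0.05, against 10.6% higher and 17.0% lower of all genes. The median log2 change of these 49 was 0.06.

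Among 10 measured ligands, Bmp4 alone passed, and the median log2 change was 0.07. Gdf10, a ligand also known as BMP3b, read 27.2, 11.3 and 15.0 on day 7, against 22.4, 45.7 and 18.4 on day 1 (log2 change -0.65, limma adjusted p = 0.366). Gdf6, a joint-forming ligand, read 7.90, 6.73 and 6.32 on day 7, against 5.28, 5.82 and 6.78 on day 1 (log2 change 0.20, limma adjusted p = 0.410). Its values lay near the bacterial control probe sets, where a fold change is not reliable. Gdf5 was not analysed here.

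Receptors and co-receptors had a median log2 change of -0.17, with 8 negative and 4 positive changes among 12 measured genes, none of which passed limma's test, while 4 were lower and 0 higher at an unadjusted p under 0.05, against 17.0% lower and 10.6% higher of all genes. Acvr2b, a type II activin receptor that also binds BMPs, read 15.7, 21 and 14.1 on day 7, against 34.6, 26.5 and 24.3 on day 1. Its arrays did not overlap (log2 change -0.72, SE 0.18; limma adjusted p = 0.0732). Of the 15 alternatives, it passed only with array weights (0.0367). That setting called 538 higher and 897 lower over all genes, against 274 and 448 as reported. Rgma and Rgmb, membrane-anchored co-receptors of the repulsive guidance family, had log2 changes of -0.70 and -0.67 (limma adjusted p = 0.0954 and 0.0892). Rgma read 74.1, 98.9 and 73.6 on day 7, against 126, 107 and 174 on day 1, and Rgmb read 101, 123 and 90.8 on day 7, against 204, 131 and 171 on day 1. The values of both genes did not overlap between ages. Rgmb passed with array weights (adjusted p = 0.0458) and with the mean of its probe sets (0.0457). With both arrays numbered 2 left out, a setting chosen after seeing the data, Rgma (-1.0, adjusted p = 0.0470) and Rgmb (-0.96, adjusted p = 0.0367) passed. Neither passed in any other alternative. The third member of the guidance family, Hjv (hemojuvelin), is named here after its values were seen because it is made by skeletal muscle. It read 730.0, 1168 and 559 on day 7, against 1599, 1108 and 1814 on day 1 (log2 change -0.92, limma adjusted p = 0.115). It passed only without day 7 replicate 2 (-1.21, adjusted p = 0.0491) and without both arrays numbered 2 (-1.41, adjusted p = 0.0247). On day 7 its order over the arrays was that of the muscle sums, which were 70661, 90871 and 61039, and on day 1 it was so again, with muscle sums of 113377, 93283 and 118882. Rgma also had the order of the muscle sums at both ages, and Rgmb had it on day 7 but not on day 1. The part of muscle in the levels of the guidance family was not tested.

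Antagonists and other extracellular regulators had a median log2 change of 0.25, with 10 positive and 5 negative changes among 15 measured genes. None passed limma's test, while 5 were higher and 1 lower at an unadjusted p under 0.05, against 10.6% higher and 17.0% lower of all genes. The 5 include Grem1, dim on day 1, and Chrdl2, which read between 4.49 and 9.08 on all 6 arrays. Such values lay near the bacterial control probe sets (at most 4.76), where a fold change is not reliable. Nbl1, a secreted BMP antagonist also called DAN, read 183, 244 and 171 on day 7, against 114, 143 and 119 on day 1, with no overlap. The log2 change was 0.65 (SE 0.16; limma adjusted p = 0.0694). Of the 15 alternatives, it passed only after quantile normalization (0.0421) and with array weights (0.0352). Twsg1, twisted gastrulation, which forms complexes with BMPs and chordin, read 661, 596 and 635 on day 7, against 464, 541 and 484 on day 1 (limma log2 change 0.35 with SE 0.11; adjusted p = 0.121). Chrd, chordin itself, was close to level, with 107, 110.1 and 107 on day 7 and 92.1, 124 and 113 on day 1. Nog, noggin, read 7.32, 6.73 and 7.54 on day 7, against 9.90, 6.24 and 20.2 on day 1.

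The 8 Smads and Smad ubiquitin ligases moved least, with log2 changes between -0.15 and 0.04. None was past the threshold at an adjusted or an unadjusted p under 0.05 (limma). Smad9, at the upper end (0.04, 95% interval -0.36 to 0.44), read between 7.26 and 11.6 on all 6 arrays. These values lay near the bacterial control probe sets, where a fold change is not reliable. Smad1, a BMP signal transducer, read 573, 482 and 466 on day 7, against 594, 523 and 559 on day 1 (log2 change -0.14, 95% interval -0.43 to 0.14). Smad7, an inhibitory Smad and BMP target, had a log2 change of -0.15 (95% interval -0.41 to 0.11), and Smurf1, a ubiquitin ligase for Smad1 and Smad5, one of -0.14 (95% interval -0.48 to 0.19).

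Target genes had a median log2 change of 0.15 over 19 measured genes, with none past limma's threshold and 3 higher and 0 lower at an unadjusted p under 0.05, against 10.6% higher and 17.0% lower of all genes. Id4, the fourth Id gene, read 79.4, 66.5 and 58.4 on day 7, against 47.2, 42.3 and 44.4 on day 1. Its arrays did not overlap (log2 change 0.59, SE 0.13; limma adjusted p = 0.0568), and it passed after quantile normalization (0.0330), with array weights (0.0319) and among the brighter probe sets only (0.0421). Msx1, a homeobox gene of limb and craniofacial tissue, read 88.5, 68.0 and 79.1 on day 7, against 72.7, 47.4 and 45.4 on day 1 (log2 change 0.53, limma adjusted p = 0.169). The groups overlapped through day 1 replicate 1.

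**Figure D3:**
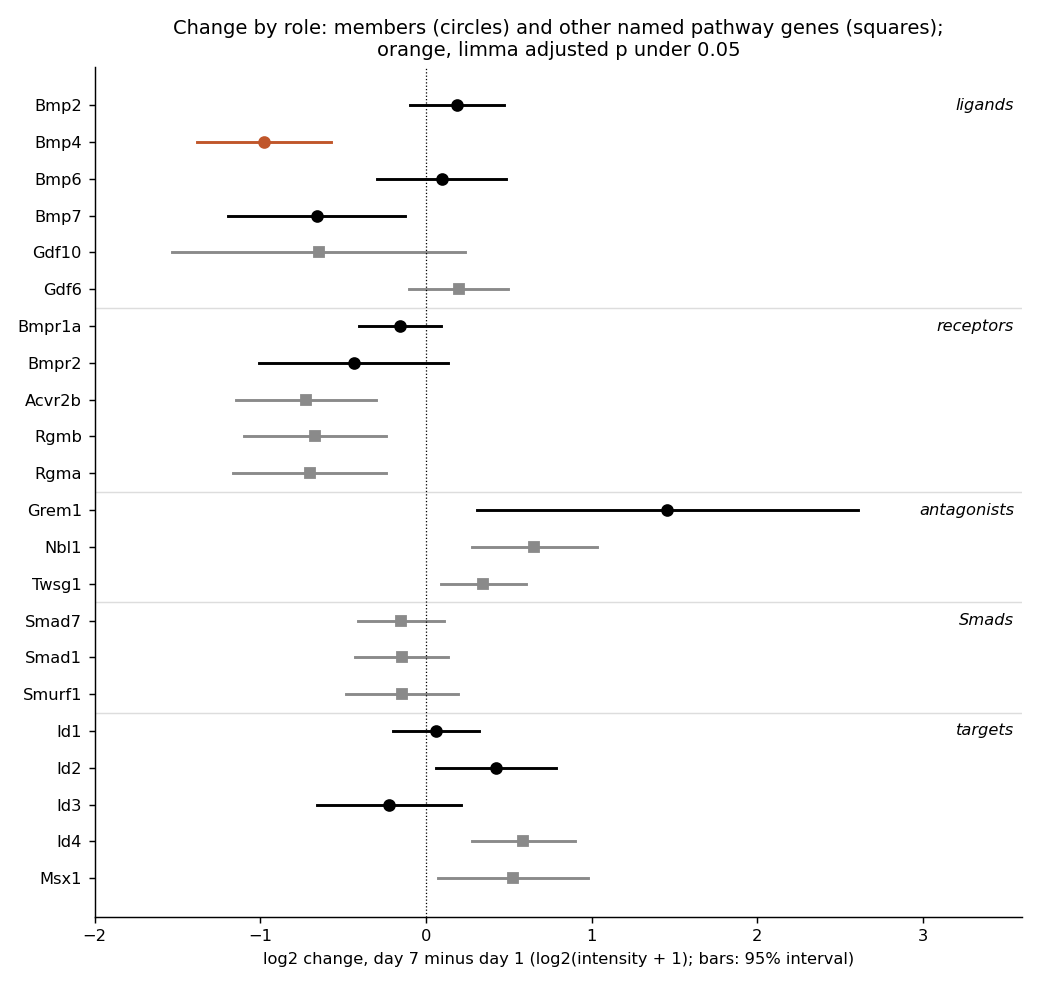
Log2 change (horizontal axis, day 7 minus day 1, bars for the 95% interval) of the 10 genes as circles and of other named pathway genes as squares, by role. Bmp4 is the only gene in orange, with an adjusted p under 0.05, and the intervals of the Smads all cross 0.

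A list of E proteins and other helix-loop-helix factors had 12 measured genes. Of these, 2 fell and 0 rose (limma, adjusted p under 0.05), against 3.15% lower and 1.93% higher of all genes. The E proteins Tcf3, Tcf4 and Tcf12 did not pass. At an unadjusted p under 0.05, 3 were lower and 1 higher, against 17.0% and 10.6% of all genes. Myod1 and Myog, which drive muscle differentiation, had log2 changes of -1.95 and -1.66 (limma adjusted p = 0.0303 and 0.0338), and both are also in the muscle list, whose sums are given above. Myf6, a muscle factor of the same family, had a log2 change of -1.05 (limma adjusted p = 0.151). Tcf12, an E protein, had one of -0.19 (adjusted p = 0.324), and Hand2, a factor of limb and heart development, one of 0.54 (adjusted p = 0.125). Scx, itself a helix-loop-helix factor, had a log2 change of 0.13 (95% interval -0.22 to 0.48; limma adjusted p = 0.646).

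The genes whose log2 values followed those of a member most closely over the 6 arrays were sought among 7107 or 7108 genes brighter than the median gene, by Pearson's r. For Bmp4 they were Rcor1 (0.996), Numa1 (0.995) and Man2a2 (0.994). For Grem1 they were Zfp36l2 (0.998), Zzz3 (0.993) and Dsel (0.990). For Id2 they were Krtcap2 (0.998), Smarca2 (0.997) and Swap70 (0.995), for Id3 Msl1 (0.987), Eea1 (0.983) and Rabl6 (0.981), and for Id1 Kmt2e (0.975), C11h21orf91 (0.964) and Tet3 (0.963). These genes share the arrays and the difference in age, and with 6 points many genes reach a high r. None of the 15 passed limma's test between the ages, and Rcor1 came closest (log2 change -0.67, adjusted p = 0.0531).

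**Figure D4:**
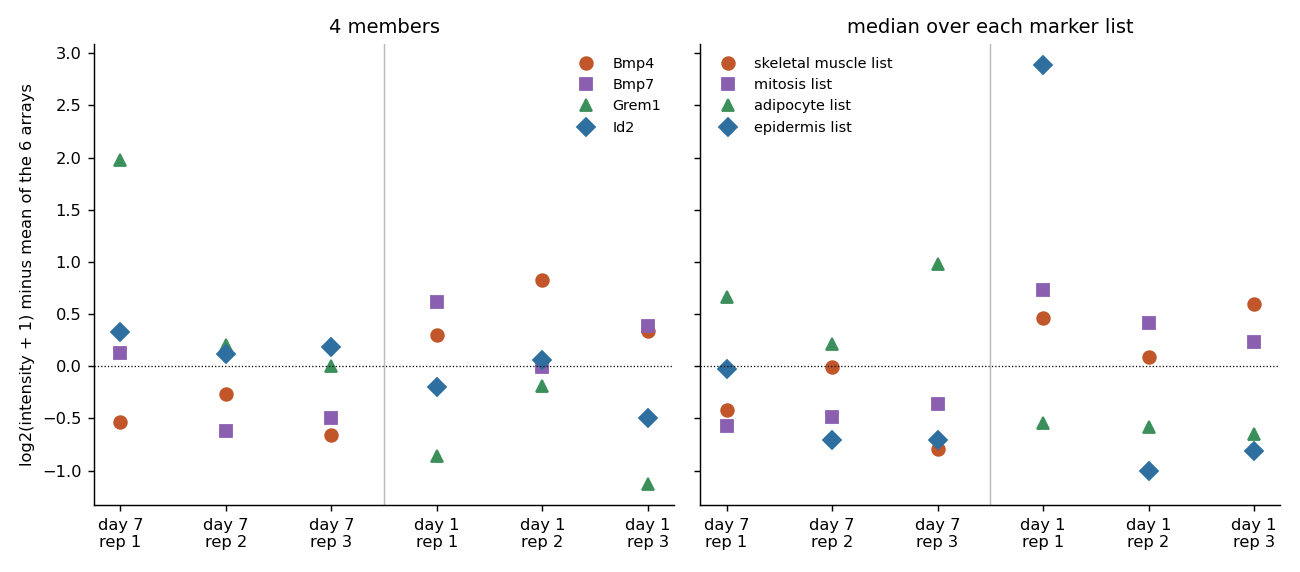
Log2 intensity relative to the mean of the 6 arrays (vertical axes) for Bmp4, Bmp7, Grem1 and Id2 (left panel) and for the median of 4 marker lists (right panel), on each array with day 7 left of day 1. Grem1 stood at 1.98 on day 7 replicate 1 and the epidermis list at 2.89 on day 1 replicate 1, and Bmp4 was highest on day 1 replicate 2.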

How the data were processed

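RNA of 6 samples was measured on a rat Affymetrix array. Per probe set, the authors deposited a linear intensity for each array. The submitters' processing notes name MAS5 and RMA, and no source used here says which of them made the values. Intensities were transformed to log2(intensity + 1) without further normalization. Of 31099 probe sets, 57 controls were left out, no filter on low values was set, and 31042 were tested. A platform annotation gave 20826 of these 1 gene symbol, 436 several and 9780 none. Day 7 was compared with day 1 in a two-sided limma fit (version 3.58.1, under R 4.3.3); p-values of all probe sets tested were adjusted together after Benjamini and Hochberg, at a threshold of 0.05. A fold change is on the log2(intensity + 1) scale, which understates changes of dim genes.

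The members and lists were chosen with earlier results of these data known. Named were the 10 members, of each pathway list the genes that passed and the 3 next smallest p-values, and the 3 genes most like Bmp4, Grem1, Id1, Id2 and Id3. Chrd, Chrdl2, Nog, Hjv, Smad9, Scx and Tnmd were named after their values were seen. Marker lists covered skeletal muscle, adipocyte, cartilage, endothelial, Schwann, smooth muscle, macrophage, bone, epidermis, tendon and mitosis genes. Their median log2 changes were -0.80, 1.19, 0.80, 0.25, 0.31, 0.21, -0.31, -0.05, -0.78, 0.43 and -0.92 in that order. The fit was tested on simulated data. Promoter windows came from RefSeq (GRCr8), with 8 of the 10 members matched by symbol. Alternatives were another scaling, pseudocount, probe set rule, variance model, block or set of arrays. For arrays, the number of samples and the signal over background limit the precision.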

Additional observations from a re-analysis of the deposited data

How the results depend on the processing

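Members other than Bmp4 passed in none of the 15 alternatives. Bmp4 kept its sign in all 15, and its call was lost with a pseudocount of 16 (log2 change -0.86) and with the replicate block (-0.98, adjusted p = 0.0591), which left 0 members and 0 pathway genes lower (limma; 3 and 4 members, and 12 and 15 pathway genes, at an unadjusted p under 0.05 in either direction). The replicate number is not known to mark a pair, so the labels give no basis for the block. Deviations of same-numbered arrays correlated at 0.13, -0.27 and -0.09, and those of differently numbered arrays at -0.22 to 0.28. With only 3 arrays per age, these correlations cannot tell whether the arrays were paired. Over all genes the block called 25 higher and 8 lower, array weights 538 and 897, and a pseudocount of 16 called 182 higher, against 274 and 448 as reported. Of all calls, the higher ones made up 38.0% as reported and 52.4% after quantile normalization. Higher pathway genes numbered 2 after quantile normalization and with array weights and 1 among brighter probe sets, against 0. Lower pathway genes numbered 2 with the mean of probe sets, 3 with array weights and, in a setting chosen after seeing the data, 4 without both arrays numbered 2, against 1. Bmp6 changed sign with array weights (-0.0043) and without day 1 replicate 3 (-0.0747). With 1 array left out, changes ran from -1.09 to -0.80 for Bmp4, from -0.0747 to 0.22 for Bmp6 and from -0.0070 to 0.11 for Id1. Lower members then numbered 0 to 1, lower pathway genes 0 to 2, and all genes 4 to 271 higher and 0 to 382 lower. The 0 came without day 7 replicate 1 (limma; 1869 lower at an unadjusted p under 0.05). Bmp7 and Grem1 are too dim for the setting with brighter probe sets and have no value there. The causes were not tested. Signal over background limits Grem1 on day 1.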
